A study of Homo sapiens with 14 samples.

Results

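The 8 genes described here are ID1, ID2, ID3 and ID4, which encode the inhibitors of DNA binding, SMAD6 and SMAD7, which encode the inhibitory SMADs, SMAD9, and BAMBI. They were picked by symbol, as feedback targets of bone morphogenetic protein (BMP) and TGF-beta signalling, out of 60876 annotated genes with an entry in the tables. All 8 were among the 15426 genes with enough reads to be tested. ID2, SMAD6 and SMAD7 already stood out in earlier results of these libraries, chiefly in those labelled 10 min. Values at that label therefore describe the genes and test nothing. Poly(A) RNA came from MDA-MB-231, a human breast cancer line of triple-negative type, and 14 libraries were sequenced. They form 7 groups of 2 replicates: a control, cells given RBI2 and cells given CX-5461, both at 5 µM and sampled after 10, 30 or 120 min. RBI2 is a small molecule that came out of screens for inhibitors of ribosome biogenesis, and CX-5461 is an inhibitor of RNA polymerase I that served as the positive control. All 7 groups are the same line, and no genetic change is stated for any of them. The study's text calls the control untreated in some places and vehicle-treated in others, so which of these it was is not settled here, and the 2 control libraries serve all 3 times. Nothing in the sources used here says that replicates came from separate cultures, so the p-values measure only the spread between these samples.

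BMP and TGF-beta ligands bind pairs of receptor kinases, which phosphorylate receptor-activated SMADs. These join SMAD4 and act in the nucleus, where the BMP branch switches on the ID genes as some of its most direct targets. ID proteins have a helix-loop-helix but no DNA-binding region, so they capture bHLH transcription factors and hold cells from differentiating. In breast cancer lines ID1 and ID3 are best known for their part in tumour initiation and metastasis. SMAD6 and SMAD7 close the loop: they block receptors or SMAD complexes and are themselves switched on by the pathway, SMAD6 mainly limiting the BMP branch and SMAD7 both branches. BAMBI is a receptor-like membrane protein without a kinase domain that acts as a decoy. SMAD9 is a receptor-activated SMAD of the BMP branch and not an inhibitory one. Several of these genes also answer serum, stress and calcium or cAMP signals.

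Depth ran from 14112299 to 24849354 estimated reads per library (median 16305236). Control replicate 2 stood apart: mitochondrial genes took 20.6% of its reads, against 9.55% in control replicate 1 and between 8.14% and 11.3% in the treated libraries. Between the control replicates 812 genes differed by over 2-fold, against 194 to 265 between treated replicates. The mesenchymal markers of the line were high in all libraries (VIM at 2779 to 3387 CPM, the unit for read counts scaled to library size), and ESR1, PGR, FOXA1 and CDH1 stayed at or below 0.334 CPM. GATA3 and EPCAM, also on the luminal list, reached 6.55 and 14.3 CPM. The blood marker PTPRC was at most 0.124 CPM, and the fibroblast markers COL1A1 and PDGFRB at most 5.02 and 5.37 CPM. In bulk RNA, fewer expressing cells and less RNA per cell cannot be told apart. In 12 of the 12 treated libraries, the time in the submitters' name for the deposited table differed from the time in the sample label. Times are used here as labelled, so 10, 30 and 120 min stand for the label.

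The genes lie on 8 chromosomes of GRCh38. The 4 ID genes are short: ID1 on chromosome 20 (31605283 to 31606515, plus strand), ID2 on chromosome 2 (8678845 to 8684461, plus), ID3 on chromosome 1 (23557926 to 23559501, minus) and ID4 on chromosome 6 (19837370 to 19842197, plus). SMAD6 is on chromosome 15 (66702236 to 66782849, plus), SMAD7 on chromosome 18 (48919853 to 48950965, minus), SMAD9 on chromosome 13 (36844831 to 36920887, minus) and BAMBI on chromosome 10 (28677510 to 28682932, plus). The genes ID2-AS1 and LNC-LBCS lie on the opposite strand of ID2 and ID4, which the stranded libraries keep apart. SMAD6 shares its strand with the annotated gene ENSG00000274995 and SMAD9 with SMAD9-IT1, so their reads are less certain.

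The 250 bases before the RefSeq start site (GRCh38.p14) are shown for 5 genes. These are the genes that, beside ID2 and the scarce ID4, met the call defined below in at least 1 comparison. The window of ID2 overlaps an exon of another of its transcripts and is not printed. The printed windows of ID1 and BAMBI end a few bases inside the gene at the positions given above. All 8 genes matched the RefSeq table. Capitals mark the motifs searched on either strand: GGCGCC and CAGAC, short sequences bound by SMAD proteins, GTCTAGAC, their palindromic form, TGACGTCA and TGACG, bound by CREB and ATF factors, and TATAAA, the core of the TATA box. TGACG is contained in TGACGTCA.
ID1, chr20:31605039-31605288, plus strand: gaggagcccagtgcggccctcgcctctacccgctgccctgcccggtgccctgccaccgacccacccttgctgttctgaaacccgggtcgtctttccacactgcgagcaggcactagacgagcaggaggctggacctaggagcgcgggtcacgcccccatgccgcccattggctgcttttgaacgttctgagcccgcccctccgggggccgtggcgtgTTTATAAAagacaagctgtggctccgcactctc
ID3, chr1:23559502-23559751, minus strand: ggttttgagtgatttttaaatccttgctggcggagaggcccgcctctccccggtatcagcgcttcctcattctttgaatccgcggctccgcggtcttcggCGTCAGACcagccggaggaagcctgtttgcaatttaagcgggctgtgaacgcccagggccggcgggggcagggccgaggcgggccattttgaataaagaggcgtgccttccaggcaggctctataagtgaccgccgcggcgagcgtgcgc
SMAD6, chr15:66701986-66702235, plus strand: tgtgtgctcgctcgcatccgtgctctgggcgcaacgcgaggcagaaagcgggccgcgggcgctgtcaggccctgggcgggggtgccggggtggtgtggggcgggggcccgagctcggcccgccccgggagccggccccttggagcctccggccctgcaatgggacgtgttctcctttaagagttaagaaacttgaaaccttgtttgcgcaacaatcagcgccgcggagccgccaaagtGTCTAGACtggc
SMAD7, chr18:48950966-48951215, minus strand: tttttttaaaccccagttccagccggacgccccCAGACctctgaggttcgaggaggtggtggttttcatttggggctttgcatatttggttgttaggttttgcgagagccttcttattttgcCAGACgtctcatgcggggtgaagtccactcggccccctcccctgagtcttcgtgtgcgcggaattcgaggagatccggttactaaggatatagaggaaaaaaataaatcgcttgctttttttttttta
BAMBI, chr10:28677271-28677520, plus strand: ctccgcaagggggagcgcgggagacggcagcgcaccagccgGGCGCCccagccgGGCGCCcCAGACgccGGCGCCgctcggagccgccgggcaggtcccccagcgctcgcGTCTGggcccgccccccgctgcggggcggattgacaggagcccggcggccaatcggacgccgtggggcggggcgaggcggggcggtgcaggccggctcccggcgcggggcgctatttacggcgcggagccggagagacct
The promoter of SMAD6 held GTCTAGAC, whose first base lies 12 bases before the start site. That motif was found in 0.182% of 35116 RefSeq promoter windows of this length. BAMBI carried 3 copies of GGCGCC at positions -209, -196 and -181, and 16.4% of the windows held at least 1. CAGAC was present before ID3, ID4, SMAD7 and BAMBI and in 38.0% of all windows. TATAAA was found before ID1, at -31 and, on the other strand, at -33, and before ID4, at -29, as in 10.7% of the windows, and also in another of the 3 RefSeq windows of SMAD7. ID3 held TGACG at -150 (21.2% of windows), where its letters overlap a CAGAC. TGACGTCA (1.65% of windows) was in none of the 8 genes' windows, and the windows of ID2 and SMAD9 held none of the 6 motifs. A match describes the letters and is no evidence of binding.

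In the control the family was dominated by ID1 and ID3. Compared per length in TPM (Salmon's abundance, scaled by transcript length and library), ID1 had 187 ± 76.1 TPM (SD, n = 2) in the control and ID3 had 71.2 ± 31.6. ID2 followed at 6.46 ± 0.920 TPM, BAMBI at 4.71 ± 1.95 and SMAD7 at 2.96 ± 1.17. The libraries of ID2 and BAMBI overlapped in that order, as did those of BAMBI and SMAD7. SMAD9 stood below SMAD7 at 1.87 ± 0.283 TPM, and SMAD6 (0.411 ± 0.199) and ID4 (0.350 ± 0.0163) were lowest, with overlapping libraries. The same order, ID1 above ID3 above ID2, held in 6 of the 7 groups, and the exception was CX-5461 at 10 min. SMAD7 ranked above BAMBI in the group of RBI2 at 10 min and below it in the other 6. As in the control, the libraries of these genes overlapped in CX-5461 at 30 min and in RBI2 at 120 min.

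**Figure D1:**
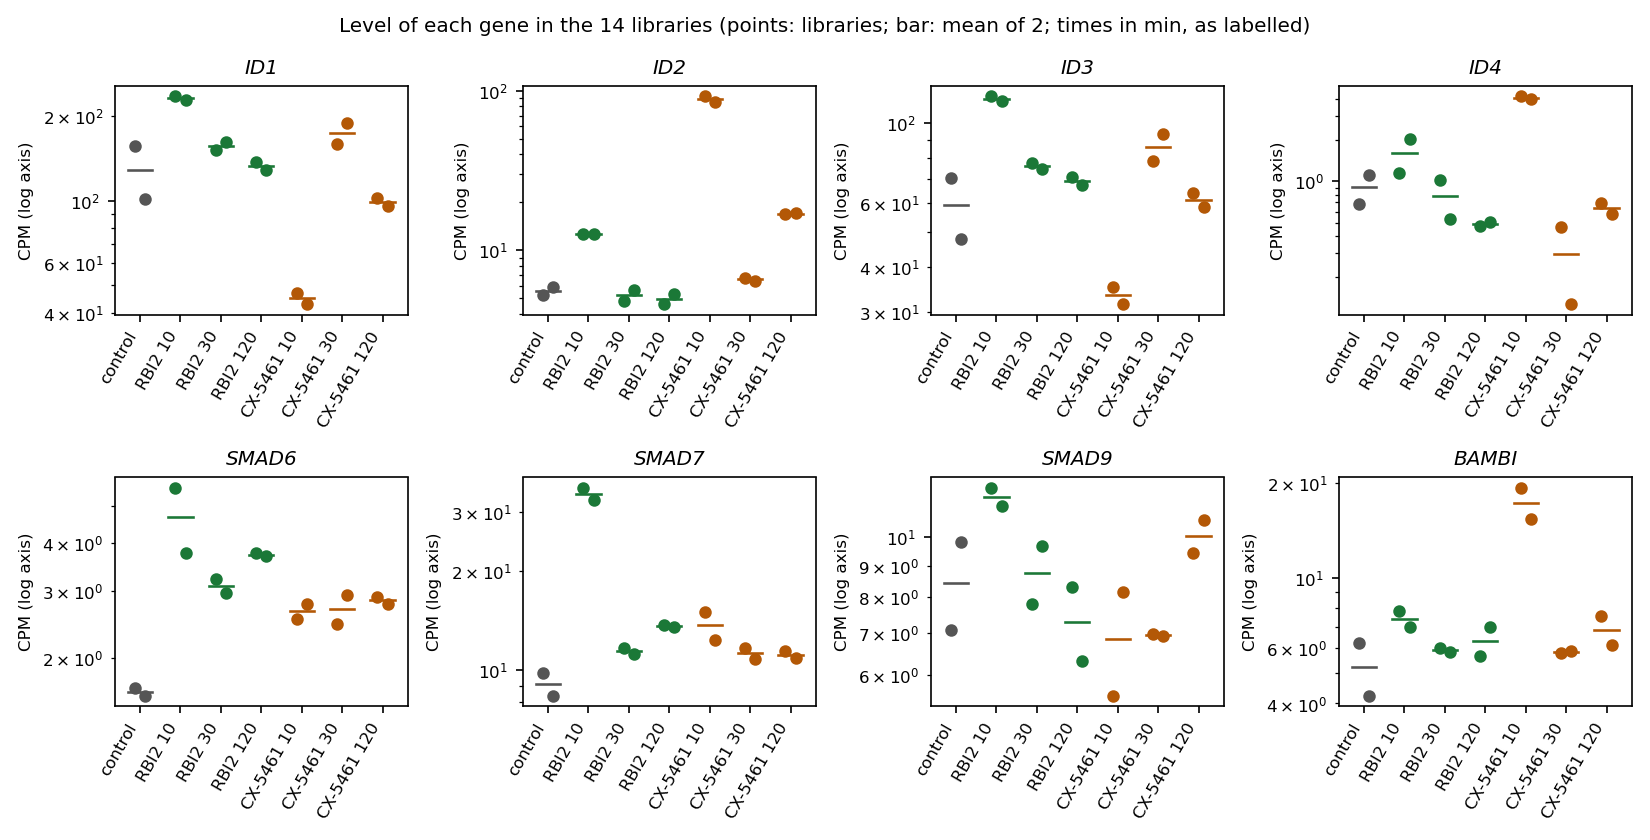
CPM of each of the 8 genes (log axis, own scale in each panel) in the 7 groups, with a point for each library and a bar for the mean of 2. ID2 in CX-5461 at 10 min (92.3 and 85.6 CPM) and SMAD7 in RBI2 at 10 min (35.6 and 32.6 CPM) sit far above every other group, while ID1 and ID3 lie below both control libraries with CX-5461 at 10 min.

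ID2, a capturer of bHLH factors that many cell types raise on BMP or cAMP signals, was furthest from the control by fold. It stood at 5.28 and 5.91 CPM in the control libraries. With CX-5461 it had 92.3 and 85.6 CPM (10 min), 6.72 and 6.42 CPM (30 min), and 16.8 and 17.2 CPM (120 min). With RBI2 it had 12.7 and 12.6 CPM (10 min), 4.82 and 5.67 CPM (30 min), and 4.602 and 5.36 CPM (120 min). All 4 libraries labelled 10 min therefore lay above the controls, as did both 30 min and both 120 min libraries of CX-5461, whereas the later RBI2 libraries overlapped the controls. At 10 min the log2 fold change against the control was 3.99 (SE 0.117), or 15.9-fold, with CX-5461 and 1.18 (SE 0.118), or 2.27-fold, with RBI2.

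At 120 min ID2 rose 3.05-fold with CX-5461 (log2 fold change 1.61, SE 0.115, 95% interval 1.35 to 1.86). Its adjusted p (edgeR quasi-likelihood test, Benjamini-Hochberg over all genes) was 0.000598, and both treated libraries were above both controls. Leaving out any of the 14 libraries kept the call (adjusted p at most 0.0117), and without control replicate 2 the log2 fold change was 1.66 (adjusted p = 0.00217 by edgeR). In a model of the 4 libraries of this comparison alone it was 1.58 with an adjusted p of 0.637 by edgeR. That model called 0 of all 14339 genes tested in it, against 7 with all 14 libraries. ID2 had been singled out in earlier results of these libraries, so this is not independent evidence. At 30 min its log2 fold change with CX-5461 was 0.24 (95% interval -0.04 to 0.51, adjusted p = 0.285 by edgeR). A single coding transcript took at least 81.8% of its reads in every library, and 100% in the controls.

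ID4, a family member of neural and mammary progenitors, was near the limit of detection with 2 to 77 reads. In the control it had 0.684 and 1.12 CPM. With CX-5461 at 10 min it had 4.15 and 3.95 CPM, clear of every other library, and the log2 fold change was 2.18 (SE 0.439). At 30 min with the same compound it had 0.466 and 0.127 CPM, from 7 and 2 reads, below both controls (log2 fold change -1.57, 95% interval -2.85 to -0.29). That difference did not pass (adjusted p = 0.213 by edgeR), but it did when control replicate 1 was left out (log2 fold change -1.91, adjusted p = 0.0426). Without a replicate of the compound the value was -2.68 or -0.92, and neither passed. At 120 min the compound's libraries, at 0.693 and 0.579 CPM, overlapped the controls. With RBI2 it had 1.15 and 2.04 CPM (10 min), 1.03 and 0.528 CPM (30 min), and 0.472 and 0.507 CPM (120 min). With so few reads, the groups other than CX-5461 at 10 min could not be ordered by their ID4 level.

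ID1 and ID3, which are often expressed together in breast cancer cells, shared a pattern, above the control with RBI2 and below it with CX-5461 at 10 min. ID1 stood at 157 and 101 CPM in the control, the lower value in control replicate 2. With RBI2 it had 235 and 228 CPM (10 min), 152 and 162 CPM (30 min), and 137 and 129 CPM (120 min). With CX-5461 it had 47.0 and 42.9 CPM (10 min), 159 and 189 CPM (30 min), and 102 and 96.1 CPM (120 min). The 10 min libraries thus enclosed the control from above with RBI2 and from below with CX-5461. The log2 fold changes were 0.84 (SE 0.164) and -1.52 (SE 0.170). Against control replicate 1 alone they were 0.54 and -1.80, and against control replicate 2 alone 1.19 and -1.17. At 30 min ID1 had log2 fold changes of 0.28 with RBI2 (adjusted p = 0.293) and 0.43 with CX-5461 (adjusted p = 0.213), and neither passed edgeR's test. Both values rested on the control: without control replicate 1 they were 0.62 and 0.78 (adjusted p = 0.00139 and 0.000495 by edgeR), and without control replicate 2 they were -0.0099 and 0.16.

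ID3 followed the same course at a lower level. Its control libraries held 70.7 and 47.9 CPM. RBI2 libraries had 118 and 115 CPM (10 min), 77.7 and 74.4 CPM (30 min), and 71.1 and 67.5 CPM (120 min). CX-5461 libraries had 35.2 and 31.6 CPM (10 min), 78.7 and 93.1 CPM (30 min), and 64.1 and 58.8 CPM (120 min). At 10 min RBI2 gave a log2 fold change of 0.98 (SE 0.153) and CX-5461 gave -0.83 (SE 0.156). Without control replicate 2 the values were 0.71 and -1.08. At 30 min ID3 was above both controls with each compound, by 0.36 with RBI2 (95% interval 0.02 to 0.70, adjusted p = 0.177 by edgeR) and by 0.53 with CX-5461 (0.19 to 0.87, adjusted p = 0.213). Neither passed the test, and the distance to the control rested in part on control replicate 2: without it the value for CX-5461 was 0.30, and without control replicate 1 it was 0.84 (adjusted p = 0.000489). For RBI2 the same omissions gave 0.10 (adjusted p = 0.785 by edgeR) and 0.66 (adjusted p = 0.00148). At 120 min the log2 fold changes of ID1 and ID3 lay between -0.38 and 0.22, with adjusted p from 0.327 to 0.918 by edgeR, and each of the 4 had an adjusted p under 0.05 with 1 of the control libraries left out. In ID1, 85.9% to 98.1% of the reads were assigned to the shorter of its 2 transcripts, in which the intron is removed.

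The make-up of the family differed most from the control with CX-5461 at 10 min. Of the TPM summed over the 4 ID genes, ID2 took 2.58% ± 0.708 (SD, n = 2) in the control and 54.4% ± 1.77 with CX-5461 at 10 min. ID1 took 70.7% ± 0.240 and 26.2% ± 1.24 in the same groups. At 30 min the ID2 share was 3.04% ± 0.776, with libraries that overlapped the control, and at 120 min it was 12.5% ± 1.68, with libraries of 11.3% and 13.7% above those of every group but CX-5461 at 10 min. With RBI2 the ID2 share was 3.38%, 2.01% and 2.73% at 10, 30 and 120 min. In all 6 RBI2 libraries the ID1 share (64.4% to 69.8%) was below both controls (70.5% and 70.8%), and the ID3 share (27.9% to 32.8%) was above both (27.3% and 25.9%). CX-5461 gave the same at 30 min (ID1 66.4% and 66.6%, ID3 29.9% and 30.9%). So it did at 120 min (ID1 55.8% and 53.8%, ID3 32.8% and 32.4%). At 10 min of CX-5461 ID1 (27.1% and 25.3%) and ID3 (18.9% and 18.1%) were both below the controls. The lower ID1 share was thus not particular to RBI2. These shares restate the levels of the same genes and were not tested.

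**Figure D2:**
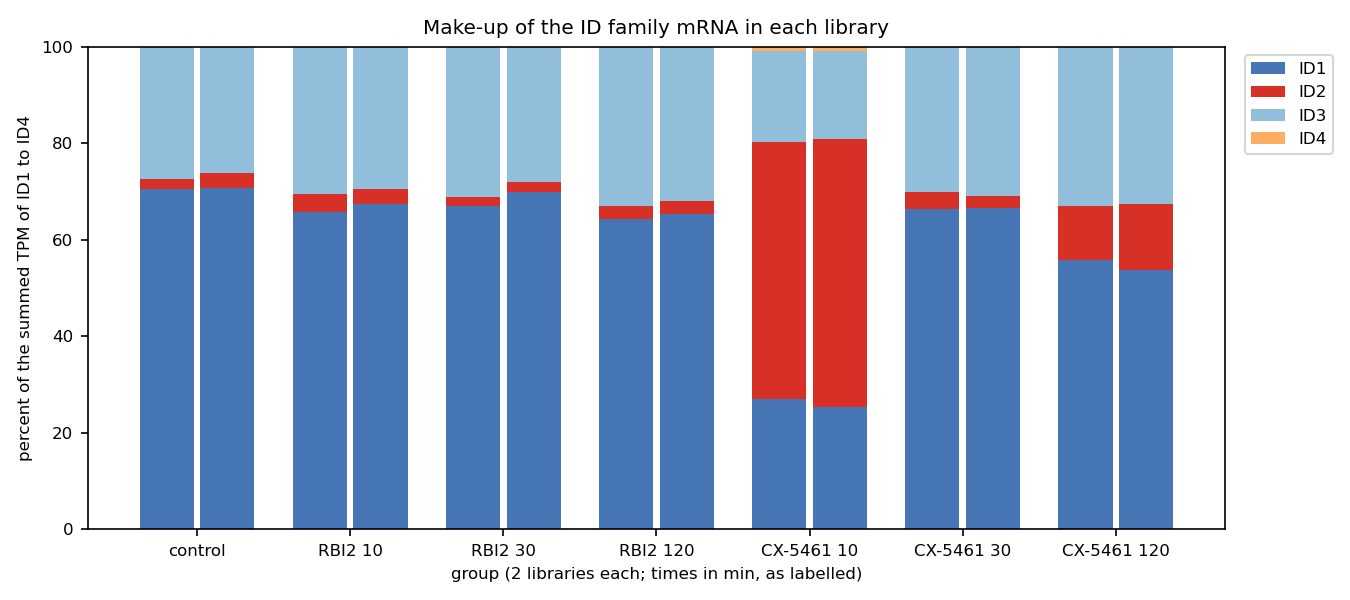
Share of ID1, ID2, ID3 and ID4 in their summed TPM, in percent, with a bar for each of the 14 libraries. ID2 fills 53.2% and 55.7% of the bars of CX-5461 at 10 min and 11.3% and 13.7% at 120 min, against 1.82% to 3.59% in the other 10 libraries.

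SMAD7, the inhibitory SMAD that takes ubiquitin ligases to TGF-beta receptors, stood highest with RBI2. Its control libraries had 9.82 and 8.39 CPM. With RBI2 it had 35.6 and 32.6 CPM (10 min), 11.6 and 11.2 CPM (30 min), and 13.7 and 13.6 CPM (120 min). With CX-5461 it had 15.04 and 12.3 CPM (10 min), 11.7 and 10.8 CPM (30 min), and 11.4 and 10.9 CPM (120 min). All 12 treated libraries were thus above both controls, and those of RBI2 at 10 min were more than 2-fold above any other. The log2 fold changes at 10 min were 1.90 (SE 0.121) after RBI2, a 3.73-fold difference, and 0.58 (SE 0.123) after CX-5461, a 1.499-fold difference. At 120 min with RBI2 SMAD7 was 1.49-fold higher (log2 fold change 0.58, 95% interval 0.30 to 0.85, adjusted p = 0.0172 by edgeR), which is below the 2-fold limit of the call. Without control replicate 2 this log2 fold change was 0.47 with an adjusted p of 0.0667, and without a replicate of RBI2 at 120 min the adjusted p was 0.103 or 0.0837 by edgeR. A transcript with a retained intron took 25.9% and 36.4% of SMAD7 reads in the control, 46.5% and 39.0% with RBI2 at 10 min, and 50.2% and 51.1% with CX-5461 at 10 min. Other groups spanned 24.3% to 50.6%, and since Salmon divides reads shared by transcripts, these shares are estimates.

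SMAD6, the inhibitory SMAD of the BMP branch, was expressed at a low level and was also higher in all 12 treated libraries. It had 1.68 and 1.60 CPM in the control, from 27 and 20 reads. With RBI2 it had 5.59 and 3.77 CPM (10 min), 3.23 and 2.97 CPM (30 min), and 3.78 and 3.70 CPM (120 min). With CX-5461 it had 2.53 and 2.78 CPM (10 min), 2.46 and 2.93 CPM (30 min), and 2.89 and 2.78 CPM (120 min). The lowest treated library (2.46 CPM) thus stood above the highest control (1.68 CPM), and the libraries of RBI2 stood above those of CX-5461 at each label. SMAD6 and SMAD7 were the 2 members with all 12 treated libraries above both controls, a pattern shown by 2.64% of all genes tested, and the labels used to pick them enter this count. Its log2 fold change at 10 min was 1.51 (SE 0.218) after RBI2 and 0.69 (SE 0.224) after CX-5461. The first met the call defined below, and lost it when any of 10 of the 14 libraries was left out and with an offset for transcript length.

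At 120 min SMAD6 rose 2.27-fold with RBI2 (log2 fold change 1.18, SE 0.221, 95% interval 0.70 to 1.67, adjusted p = 0.0118 by edgeR). The call was lost without RBI2 120 min replicate 1 (adjusted p = 0.0767) or replicate 2 (adjusted p = 0.0622), and it held without control replicate 2 (1.15, adjusted p = 0.0365). It was also lost with an offset for transcript length (log2 fold change 1.50, adjusted p = 0.0998) and in a model of the 4 libraries alone (1.19, adjusted p = 0.301), all by edgeR. The model of 4 libraries called 0 of all 14476 genes tested in it, against 280 with all 14 libraries. At 30 min it was 1.89-fold higher with RBI2 (0.92, 95% interval 0.43 to 1.41, adjusted p = 0.106, or 0.0287 without control replicate 1). With CX-5461 the log2 fold changes were 0.71 (0.21 to 1.22, adjusted p = 0.213) at 30 min and 0.79 (0.30 to 1.28, adjusted p = 0.293) at 120 min, and neither passed. SMAD6 too had been noted in earlier results, so these tests are not independent evidence.

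BAMBI, the decoy receptor, was highest with CX-5461 at 10 min. The control libraries held 6.21 and 4.23 CPM. Those of CX-5461 held 19.2 and 15.3 CPM (10 min), 5.79 and 5.85 CPM (30 min), and 7.54 and 6.14 CPM (120 min). In the RBI2 libraries it had 7.83 and 6.98 CPM (10 min), 5.99 and 5.81 CPM (30 min), and 5.66 and 6.96 CPM (120 min). The log2 fold change was 1.71 (SE 0.194), or 3.28-fold, with CX-5461 at 10 min and 0.49 (SE 0.200) with RBI2 at 10 min. At 30 and 120 min no BAMBI comparison with the control passed (without control replicate 1, CX-5461 at 120 min had an adjusted p of 0.0457 by edgeR), and the 95% intervals ran from -0.31 to 0.82.

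SMAD9, the receptor-activated SMAD among the 8, stayed closest to the control, with log2 fold changes between -0.29 and 0.47. Its control libraries held 7.08 and 9.83 CPM. The RBI2 libraries held 12.02 and 11.2 CPM (10 min), 7.81 and 9.70 CPM (30 min), and 8.32 and 6.31 CPM (120 min). In the CX-5461 libraries it had 5.55 and 8.17 CPM (10 min), 6.99 and 6.93 CPM (30 min), and 9.45 and 10.7 CPM (120 min). The RBI2 libraries at 10 min lay above both controls, by 0.47 on the log2 scale (SE 0.216), those of CX-5461 at 30 min lay below, and the other 4 groups overlapped them. The tests at 30 and 120 min gave 95% intervals from -0.77 to 0.73 against the control, with adjusted p from 0.440 to 0.896 by edgeR.

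Read by treatment, RBI2 at 10 min had all 8 genes above both controls, and 18.2% of all genes tested were above them in that comparison. The call (adjusted p under 0.05 and a difference of at least 2-fold) was met by 3 of the 8, ID2, SMAD6 and SMAD7, against 0.0778% of all genes. The median log2 fold change was 0.91 over the 8 genes and 0.01 over all genes. CX-5461 at 10 min had 5 of the 8 above and 2 below both controls, against 23.0% and 24.0% of all genes. The call was met upwards by 3 (ID2, ID4 and BAMBI; 0.752% of all genes) and downwards by ID1 (0.888% of all genes), in all by 1.64% of all genes. ID4 lost its call without either replicate of CX-5461 at 10 min. These comparisons were among those known when the genes were picked, so nothing is read from the counts.

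At the later labels few of the 8 genes met the call. With RBI2 at 30 min 0 of the 8 met the call in edgeR, against 0.0389% of all genes, with 3 at an unadjusted p under 0.05 and 0 by DESeq2. With CX-5461 at 30 min 0 of the 8 met it, against 0% of all genes, with 5 at an unadjusted p under 0.05 and 0 by DESeq2. No share of all genes stands beside these counts at unadjusted p, so nothing is read from them. By unadjusted p with the fold limit, 0 of the 8 passed for RBI2 at 30 min (341 of all genes). For CX-5461 at 30 min 1 passed, ID4 (331 of all genes). RBI2 at 120 min had 1 of 8, SMAD6 (1.82% of all genes, or 280, which became 1335 without control replicate 1, 164 without control replicate 2 and 24 or 46 without a replicate of RBI2), and CX-5461 at 120 min had 1 of 8, ID2 (0.0454% of all genes). Above both controls were 3 of the 8 with RBI2 at 30 min (26.3% of all genes), 5 with CX-5461 at 30 min (19.8%), 2 with RBI2 at 120 min (27.2%) and 3 with CX-5461 at 120 min (19.4%). Below both were 2 with CX-5461 at 30 min (20.0%) and 1, ID4, with RBI2 at 120 min (27.7%). At 30 and 120 min the median over the 8 genes was 0.22 and 0.13 for RBI2, and 0.27 at both labels for CX-5461, beside medians of all genes between -0.05 and 0.06. These 4 comparisons share their control libraries.

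**Figure D3:**
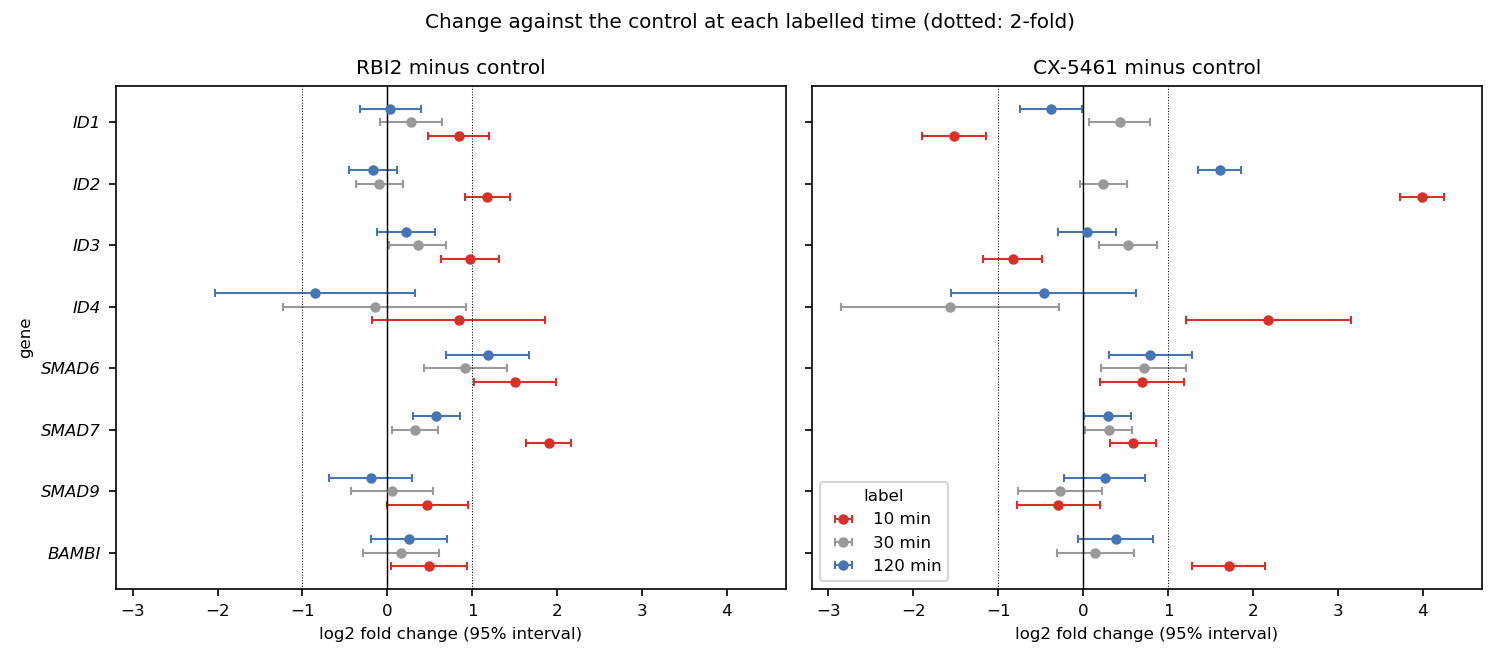
Log2 fold change of each gene against the control with its 95% interval, for RBI2 on the left and CX-5461 on the right, coloured by labelled time, with dotted lines at 2-fold. With RBI2 all 8 red points (10 min) lie above 0, whereas with CX-5461 they spread from -1.52 (ID1) to 3.99 (ID2).

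Without the control, the libraries of 120 min were set against those of 30 min within each compound. ID2 was 2.59-fold higher at 120 than at 30 min of CX-5461 (log2 difference 1.37, SE 0.112, 95% interval 1.12 to 1.62, adjusted p = 0.00195 by edgeR), the 1 member that met the call, beside 0.0130% of all genes (2 genes, and 60 or 44 with control replicate 1 or 2 left out of the model). Leaving out CX-5461 30 min replicate 2 took the adjusted p to 0.0515 with a log2 difference of 1.34. ID1 and ID3 were lower at 120 min, by 0.81 (log2 difference -0.81, 95% interval -1.17 to -0.45) and by 0.48 (-0.48, -0.82 to -0.15), each with both libraries below those of 30 min (21.8% of all genes) and an adjusted p of 0.196 by edgeR. Above those of 30 min were ID2, ID4 (1.11, -0.17 to 2.38), SMAD9 (0.53, 0.05 to 1.006) and BAMBI (0.24, -0.19 to 0.67), as in 35.9% of all genes, and the last 3 did not pass. For ID1 the adjusted p was 0.00844 with control replicate 1 left out of the model and 0.00768 with control replicate 2 left out, at log2 differences of -0.81 and -0.85, for ID3 it was 0.0403 and 0.0463, and the 2-fold limit was not reached. Between the same labels of RBI2, 0 of the 8 met the call, beside 0.0130% of all genes (2 genes, and 26 or 29 with control replicate 1 or 2 left out), 0 had an unadjusted p under 0.05 and 0 met it by DESeq2. The largest difference there was that of ID4 (-0.70, 95% interval -1.86 to 0.46).

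The 2 compounds were compared directly at the same dose and label, which made 24 pairs over the 8 genes and 3 labels, with p-values adjusted over all genes tested. At 10 min RBI2 stood above CX-5461 for ID1 (log2 difference 2.37, SE 0.173), ID3 (1.81, SE 0.157), SMAD7 (1.32, SE 0.116), SMAD6 (0.82, SE 0.202) and SMAD9 (0.76, SE 0.215). It stood below for ID2 (-2.81, SE 0.106), ID4 (-1.34, SE 0.405) and BAMBI (-1.22, SE 0.186). In each of the 8 genes the libraries of the compounds did not overlap, as in 57.3% of all genes. The call was met by 5 of the 8 (ID1, ID2, ID3, SMAD7 and BAMBI), against 1.04% of all genes. That share of all genes fell when any library of this comparison was left out. BAMBI lost the call without RBI2 replicate 2 or CX-5461 replicate 1. Since this label was known when the genes were picked, the count is a description.

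At 30 min 0 of the 8 genes met the call between the compounds, beside 0.0130% of all genes, with 2 at an unadjusted p under 0.05 (ID2 and ID4) and 0 by DESeq2. No share of all genes stands beside that count of 2, so nothing is read from it. By unadjusted p with the fold limit 1 passed, ID4, beside 223 of all genes. The difference for SMAD7 was 0.02 (95% interval -0.25 to 0.29), for BAMBI 0.02 (-0.42 to 0.46) and for ID1 -0.15 (-0.51 to 0.21). These intervals leave out a 2-fold difference and include 0. For ID2 it was -0.33 (-0.60 to -0.06, adjusted p = 0.537 by edgeR), and for ID4 the interval of 0.16 to 2.68 was too wide to place it. SMAD6 had 0.20 (-0.26 to 0.66), SMAD9 0.32 (-0.16 to 0.81) and ID3 -0.17 (-0.51 to 0.16). Both RBI2 libraries were above both CX-5461 libraries in 3 of the 8 (ID4, SMAD6 and SMAD9; 23.0% of all genes). They were below them in 2 (ID2 and ID3; 18.1% of all genes).

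At 120 min ID2 was 3.42-fold lower with RBI2 than with CX-5461 (log2 difference -1.78, SE 0.116, 95% interval -2.03 to -1.52, adjusted p = 0.000232 by edgeR). It was the 1 member of 8 that met the call, beside 1.67% of all genes, and it kept the call whichever library was left out (adjusted p at most 0.0134). The count over all genes, 258, was 5 or 19 without a replicate of RBI2 and 25 without CX-5461 replicate 2, and 394 or 395 without a control replicate. In the model of these 4 libraries alone the adjusted p was 0.00408. SMAD6 (0.40, 95% interval -0.05 to 0.84, adjusted p = 0.213), SMAD7 (0.29, 0.02 to 0.55, adjusted p = 0.128) and ID1 (0.42, 0.06 to 0.78, adjusted p = 0.108) did not pass, though ID1 had an adjusted p of 0.00535 or 0.00491 by edgeR with a control library left out of the model. Both RBI2 libraries were above both CX-5461 libraries in 4 of the 8 (these 3 and ID3; 30.7% of all genes) and below them in 3 (ID2, ID4 and SMAD9; 33.0% of all genes). ID3, ID4, SMAD9 and BAMBI had intervals from -1.56 to 0.79, and none passed.

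**Figure D4:**
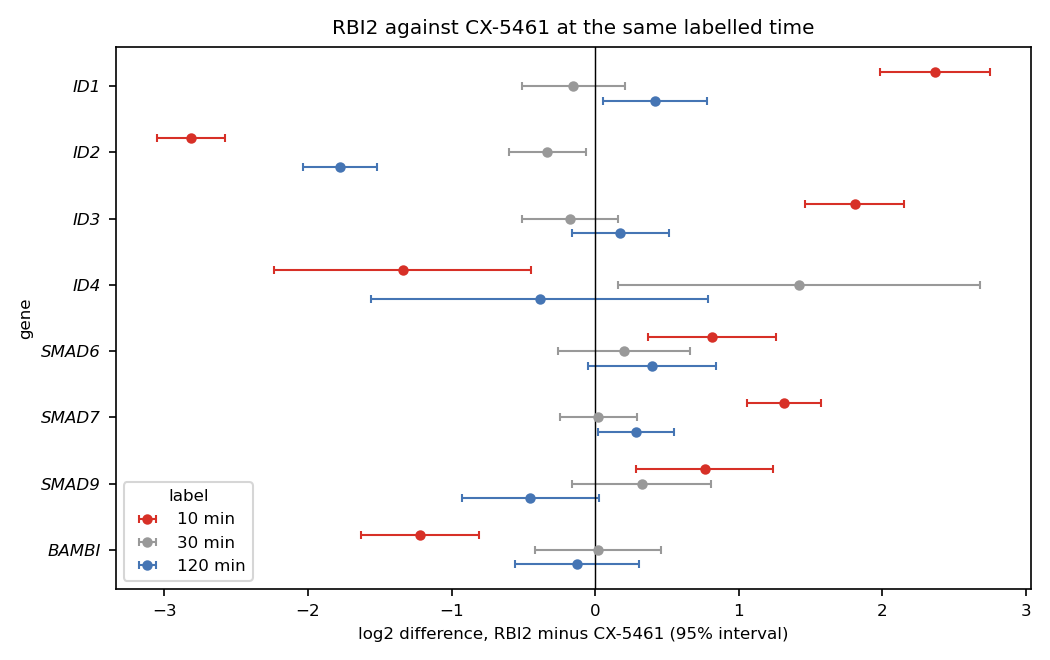
Log2 difference of RBI2 minus CX-5461 for each gene at each labelled time, with its 95% interval. ID2 lies at -2.81, -0.33 and -1.78 at 10, 30 and 120 min, and ID1 at 2.37, -0.15 and 0.42, so that most intervals at 30 min cross 0.

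Other genes of the pathway met the call at 10 min alone. Of 57 listed ligands, receptors, SMADs, other negative regulators, target genes and bHLH partners, 48 had enough reads to be tested. At 30 and 120 min 0 of the 48 met the call in any comparison with the control, in the direct comparisons or between labels, by edgeR or DESeq2, beside shares of all genes from 0% (CX-5461 at 30 min) to 1.82% (RBI2 at 120 min). DESeq2 left up to 32 of the 48 without an adjusted p. An unadjusted p under 0.05 was found for 7 to 28 of the 48 in the 4 comparisons with the control. No share of all genes stands beside these counts, so nothing is read from them. For RBI2 at 120 min, 2772 of all 15426 genes had an adjusted p under 0.05 by edgeR without the fold limit. By unadjusted p with the fold limit, 0 and 2 of the 48 passed for RBI2 at 30 and 120 min (341 and 563 of all genes). For CX-5461 at these labels 2 and 1 passed (331 and 289 of all genes). The medians of the 48 against the control lay between -0.17 and 0.11, and single genes between -1.83 and 1.20. At 10 min 1 of the 48 was called by edgeR with RBI2, SKIL (0.0778% of all genes), and 1 with CX-5461, HEY1 (1.64% of all genes), and DESeq2 called SKIL but not HEY1. SKIL, a nuclear repressor of SMAD complexes, had 45.7 and 48.2 CPM with RBI2 against 13.98 and 22.9 in the control (log2 fold change 1.36, SE 0.203). HEY1, a bHLH repressor and target of BMP and Notch signals, had 2.32 and 2.17 CPM with CX-5461 against 0.249 and 0.240 (3.16, SE 0.486). It was the 1 listed gene called by edgeR between the compounds at that label (1.04% of all genes), where DESeq2 called 0 of the 48. HEY1 and MSX2 passed the filter on low counts only with the help of the libraries of CX-5461 at 10 min, so that HEY1 had to be high there, and nothing is read from its call. GREM1, a secreted BMP antagonist, had log2 fold changes of -1.65 (SE 0.485) with CX-5461 and -0.92 (SE 0.474) with RBI2 at 10 min. That comparison rests on its control libraries, which held 35.7 and 153 CPM, while the treated libraries held 24.5 to 54.9 CPM.

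The 5 signalling SMADs (SMAD1 to SMAD5) had a median log2 fold change between -0.23 and 0.13 in the 6 comparisons with the control, the 11 tested receptors between -0.36 and 0.10, and the 3 tested BMP ligands between -0.14 and 0.21. The 9 target genes outside the 8 had medians between 0.05 and 0.32. They include HEY1 and MSX2, which passed the filter only with the help of CX-5461 at 10 min, so nothing is read from their median in that group.

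**Figure D5:**
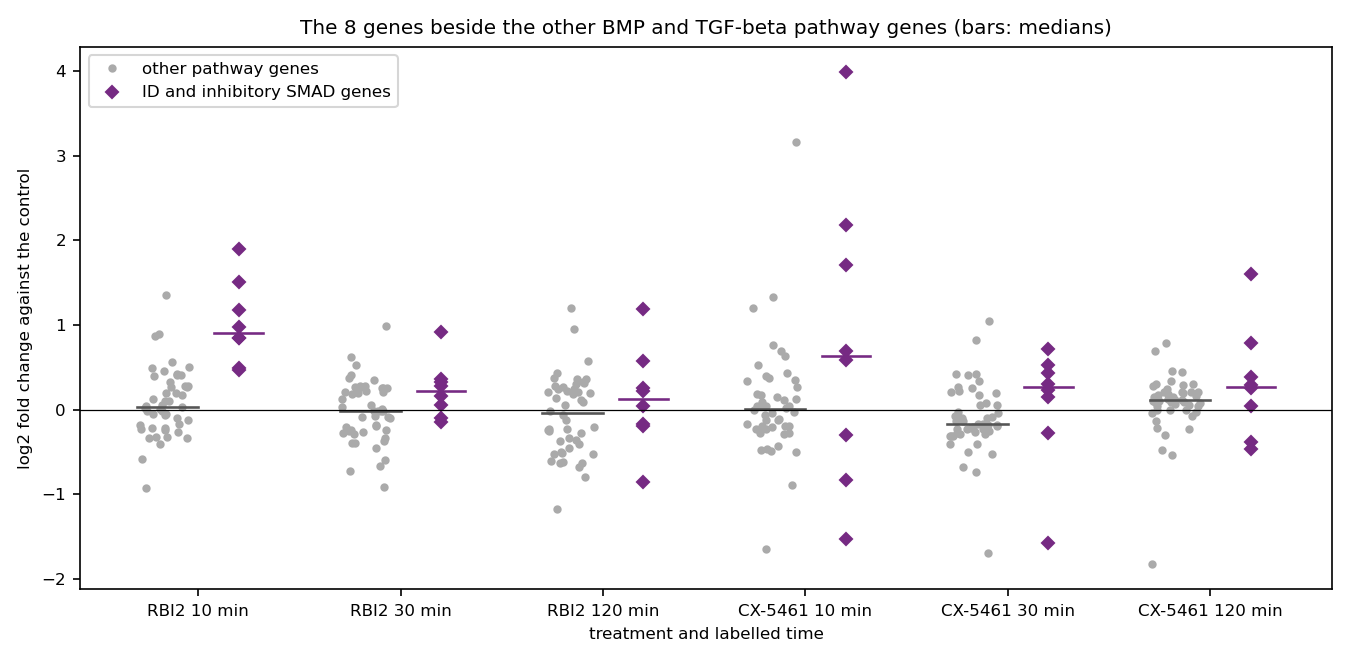
Log2 fold change against the control of the 48 other pathway genes (grey) and the 8 genes (purple) in the 6 treated groups, with bars at the medians. The grey medians stay between -0.17 and 0.11, the purple ones between 0.13 and 0.91, and with CX-5461 at 10 min HEY1 is the grey point at 3.16.

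For the 6 members with a treated mean at least 2-fold from the control, the genes of most like pattern were sought among 11055 or 11056 others whose mean reached 5 CPM in some group. Likeness was the root-mean-square difference of centred log2 CPM over the 14 libraries, which share 1 normalization. For ID1 the nearest gene was ID3, at 0.23 (the SD of ID1 itself was 0.71), followed by OSGIN1 and NMRAL2P. OSGIN1, which oxidative stress raises, had 59.7 CPM in the control, 83.9 with RBI2 and 23.7 with CX-5461 at 10 min. For ID2 the nearest were NR4A2 (0.58, beside an SD of 1.38 for ID2), HOXD1 and RASD1. NR4A2, an orphan nuclear receptor of the immediate early class, had 0.945 CPM in the control, 12.6 with CX-5461 at 10 min and 2.03 at 120 min. NR4A2 was also among the nearest of ID4, after FOSB and EGR1.

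SMAD7 was closest to BHLHE40 (0.17, SD of SMAD7 0.58), KCNJ14 and HES1. BHLHE40, a bHLH repressor, had 20.6 CPM in the control and 58.7 with RBI2 at 10 min, and between 20.5 and 29.5 in the other groups. BAMBI was closest to ATF3 (0.18, SD of BAMBI 0.55), with CCDC96 also among the nearest, and ATF3, a stress-responsive bZIP factor, had 5.16 CPM in the control and 16.5 with CX-5461 at 10 min. SMAD6 was closest to P2RY11 (0.25, SD of SMAD6 0.43), WDR81 and SMPD4BP, which stood at 9.80 to 12.03 CPM in the control and at 14.6 to 21.4 with RBI2 at 120 min. A low value of likeness is a description over these libraries and was not tested.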

How the data were processed

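Total RNA of 14 MDA-MB-231 samples was made into stranded poly(A) libraries. The authors quantified transcripts with Salmon 1.3.0 and deposited estimated counts and TPM values for each of 228754 transcripts. The submitters' processing notes also name STAR 2.7.6a, SAMtools 1.11, bedtools 2.29.2 and DESeq2 1.28.1. TPM is scaled within a library and was used here to compare genes per length, as levels or as shares of the 4 ID genes.

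Estimated counts were summed per gene through GENCODE release 44 (225662 transcripts matched; between 1.03% and 1.13% of the reads were unmatched and left out) and rounded. Genes that passed filterByExpr with a minimum count of 10 (15426) were fitted with edgeR 4.0.16 in R 4.3.3, with TMM scaling and the 7 groups in 1 model. The same fitting steps were also run on counts simulated from the means and dispersions of these data, and nothing is read from that run here. The quasi-likelihood test gave p-values, two-sided and adjusted by the Benjamini-Hochberg method over all genes tested in each of 11 comparisons. CPM values are counts scaled to library size after TMM. For a call, the adjusted p had to be under 0.05 and the log2 fold change at least 1 in size. Samples were grouped by their labels. The precision of a level is limited by 2 libraries per group, and for ID4 and SMAD6 also by few reads.

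The members and the lists of pathway genes were chosen with earlier results of these data known, and ID2, SMAD6 and SMAD7 had stood out at 10 min. Tests at 30 and 120 min and between labels are therefore no independent support. All 8 members were named in every group. Pathway genes were named where called at 30 or 120 min, and otherwise the 2 furthest from the control at 10 min with each compound. The 3 genes of most like pattern were named for each member with a mean at least 2-fold from the control (log2 CPM with a prior count of 2), and 1 of these genes is not reported here. Promoter sequences came from RefSeq, GRCh38.p14. Alternatives were DESeq2 1.42.0, its size factors in edgeR, no filter, an offset for transcript length, no fold limit, unadjusted p, only the 4 libraries compared, a replicate block, a prior count of 0.5, and each library left out.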

Additional observations from a re-analysis of the deposited data

Results flagged for a closer look

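At 10 min ID1 and ID3 lay on opposite sides of the control with the 2 compounds: both RBI2 libraries were above both controls and both CX-5461 libraries below. The log2 difference of RBI2 minus CX-5461 was 2.37 for ID1 and 1.81 for ID3. Because the comparisons at this label were known when the genes were picked, the values are a description, and no p is given for the difference. With control replicate 1 left out the difference was 2.36 for ID1 and 1.80 for ID3, and with control replicate 2 left out 2.35 and 1.79.

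At 120 min the effect of the compounds on ID2 differed, with a log2 difference of RBI2 minus CX-5461 of -1.78 (edgeR quasi-likelihood test, adjusted p = 0.000232). Both RBI2 libraries (4.602 and 5.36 CPM) were below both CX-5461 libraries (16.8 and 17.2 CPM). Within CX-5461, ID2 was higher at 120 than at 30 min by 1.37 on the log2 scale (adjusted p = 0.00195), with 6.72 and 6.42 CPM at 30 min. The libraries of the 2 labels did not overlap. The time in the submitters' table names differs from the label in all of these libraries, and its part in the difference was not tested. No cause was tested for any of these values.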

How the results depend on the processing

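The limits are 2 libraries per group, a control whose replicates differ more than the treated ones, and times that rest on the labels alone. No alternative with all libraries moved the median of all genes by over 0.1. Counts of members past the call at 10 min carry no p and are a description.
When a model held just the 4 libraries compared, the number of members called went from 3 to 0 for RBI2 at 10 min, from 1 to 0 for RBI2 at 120 min, from 4 to 1 (ID2) for CX-5461 at 10 min and from 1 to 0 for CX-5461 at 120 min, all against the control. Over all genes the calls in these models went, in the same order, from 12 to 0, from 280 to 0, from 253 to 3 and from 7 to 0. The loss was thus not particular to the members. With the offset for transcript length 0 members were called for RBI2 at 120 min, and with no fold limit 2 (SMAD6 and SMAD7). By unadjusted p with the fold limit 1 member was called for CX-5461 at 30 min and 1 between the compounds at 30 min, ID4 in both. Leaving out each library gave 2 to 5 members for RBI2 at 10 min, 0 to 1 for RBI2 at 120 min, 3 to 5 for CX-5461 at 10 min, 0 to 1 for CX-5461 at 30 min (1 without control replicate 1) and 0 to 1 for CX-5461 at 120 against 30 min. It gave 4 to 5 for the direct comparison at 10 min, and the other 5 counts stayed as reported. The cause was not tested. SMAD6 with RBI2 at 10 min lost its call with the length offset and without any of 10 of the 14 libraries, control replicate 2 among them. ID3 with CX-5461 at 10 min gained a call without control replicate 2, and ID1 and ID3 with RBI2 at 10 min gained one without control replicate 1. ID4 with CX-5461 at 10 min lost its call without either replicate of that group. Between the compounds at 10 min BAMBI lost its call without RBI2 replicate 2, where SMAD6 gained one, or CX-5461 replicate 1.
Leaving out control replicate 1 took the adjusted p under 0.05, fold limit aside, for ID1, ID3, SMAD6 and SMAD7 with RBI2 at 30 min, for ID1 (0.0143) and ID3 (0.00424) with RBI2 at 120 min, for ID1, ID3, ID4 and SMAD7 with CX-5461 at 30 min, and for ID3 (0.0470) and BAMBI with CX-5461 at 120 min. Leaving out control replicate 2 did so for ID1 with CX-5461 at 120 min (-0.68, adjusted p = 0.0496).
Of 88 log2 fold changes of single members, 70 kept their direction under every alternative run and 18, all at most 0.28 in size, did not. With the length offset the value was -0.19 for ID1 and 0.058 for ID2 with RBI2 at 120 min, -0.084 for SMAD6 between the compounds at 30 min, 0.14 for ID2 and -0.021 for BAMBI with RBI2 at 120 against 30 min, and -0.12 for SMAD6 with CX-5461 at 120 against 30 min. BAMBI between the compounds at 30 min had -0.0017 by DESeq2 and -0.0016 with its size factors. Leaving out each library gave, for RBI2 at 30 min, -0.0099 to 0.62 for ID1, -0.22 to 0.039 for ID2, -0.73 to 0.22 for ID4, -0.18 to 0.29 for SMAD9 and -0.081 to 0.47 for BAMBI. For RBI2 at 120 min it gave -0.25 to 0.38 for ID1, -0.034 to 0.52 for ID3 and -0.43 to 0.048 for SMAD9. For CX-5461 it gave -0.082 to 0.46 for BAMBI at 30 min and -0.22 to 0.36 for ID3 at 120 min. Between the compounds it gave -0.038 to 0.047 for SMAD7 and -0.023 to 0.038 for BAMBI at 30 min, and -0.28 to 0.066 for BAMBI at 120 min. Between 120 and 30 min it gave -0.19 to 0.044 for ID2 and -0.062 to 0.24 for BAMBI with RBI2, and -0.12 to 0.21 for SMAD6 with CX-5461.
Over all genes, DESeq2 called 37 against 12 by edgeR for RBI2 at 10 min, 19 against 6 at 30 min and 157 against 280 at 120 min. For CX-5461 it called 16 against 0 at 30 min and 37 against 7 at 120 min. DESeq2 gave ID2 no adjusted p for CX-5461 at 120 against 30 min. Without control replicate 1, 724, 1071 and 1335 genes were called for RBI2 at 10, 30 and 120 min and 1354, 1143 and 611 for CX-5461 at 10, 30 and 120 min. Between the compounds at 30 min 6 genes were called when 1 of the control libraries, whichever it was, was left out, against 2 with all.
Fitting the replicate number as a block kept the count of members called at 3, 0 and 1 for RBI2 and at 4, 0 and 1 for CX-5461 against the control, at 5, 0 and 1 between the compounds, and at 0 and 1 between labels. Over 21 pairs of groups the correlation of same-numbered deviations ran from -0.18 to 0.18, and 3 were above 0.1. Whether same-numbered samples of some groups were handled together cannot be told from these values.
With a prior count of 0.5, RASA4 entered the nearest genes of SMAD6 in place of SMPD4BP, and SNAI1 those of BAMBI in place of CCDC96. HOXD1 (0.59) then stood ahead of NR4A2 (0.602) for ID2, and NR4A2 ahead of EGR1 for ID4.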
